A study of Homo sapiens with 14 samples.

Results

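The genes described here are 39 components of autophagy, the process by which a cell encloses parts of its own cytoplasm in a membrane and delivers them to the lysosome for breakdown. They were chosen by name, as the machinery that builds the autophagosome and the receptors that load it, and not by a threshold on a measured value. Earlier results of these data were known when they were chosen. All 39 were measured among 19775 genes, each by its brightest probe set that names that gene alone. Their RNA was measured on 14 HG-U133 Plus 2.0 arrays from 7 established lines of T-cell acute lymphoblastic leukemia (T-ALL), which were TALL-1, Molt-4, Jurkat, CCRF-CEM, ALL-SIL, HPB-ALL and P12-ICHIKAWA. Each line gave 1 array after 6 h with AS605240, an inhibitor of phosphoinositide 3-kinase (PI3K), and 1 array after 6 h with vehicle. AS605240 was given at the IC50 value of each line, so its concentration was not the same in all lines, and all cultures were moved to fresh medium before treatment. The comparison asked which transcripts respond when PI3K is inhibited.

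Autophagy starts with the ULK kinase complex and with a lipid kinase complex around BECN1 that marks the growing membrane with phosphatidylinositol 3-phosphate (PI3P). Lipid transfer proteins then feed the membrane, and enzymes that resemble those of ubiquitin transfer attach the ATG8 proteins to it, which hold cargo receptors. In well-fed cells, PI3K signaling through Akt and mTORC1 keeps the ULK complex inactive and keeps the FOXO and TFEB transcription factors, which act on autophagy genes, out of the nucleus. Autophagy itself is regulated to a large extent on the proteins, which these arrays did not measure.

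The arrays carried the markers of T cells. Of 10 T-cell genes, 9 had a signal over 50 on all 14 arrays. Of 4 measured B-cell genes, MS4A1 and PAX5 were never over that signal, CD79A was over it on 12 arrays and CD79B on 5. Of 5 myeloid genes LYZ was over 50 on all 14 arrays and the other 4 on none. Of 6 epithelial and fibroblast genes KRT8 and COL1A1 were over 50 on all 14 arrays and the other 4 on none. The mean of the B-cell list was lower with AS605240 in each line, by 0.051 to 0.27 on the log2 scale (4.70 to 5.76 with AS605240, against 4.75 to 5.99 with vehicle). Of its genes CD79B fell (-0.58, adjusted p = 0.00138), while MS4A1 (-0.11), PAX5 (0.06) and CD79A (0.12) did not pass, and its part in the results below was not tested. Of the T-cell genes only CD3G passed. It fell in each line (-0.26, adjusted p = 0.00682), and its part was not tested either. The median of the AS605240 array was above that of the vehicle array in 6 of 7 lines, with a mean shift of 0.053 ± 0.039 (SD, n = 7). P12-ICHIKAWA and TALL-1 were close to each other: their vehicle levels correlated across all genes with r = 0.994, whereas the remaining 20 pairs of lines had 0.908 to 0.953, genes not being independent replicates. Over the 39 autophagy genes the median difference of their vehicle levels was 0.10, against 0.19 to 0.41 in the other pairs. Whether they are separate lines was not tested, n = 7 lines counts both, and the counts are also given with both as 1 line.

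More autophagy genes were higher than lower after AS605240. Of the 39 genes, 16 (41.0%) were higher and 3 (7.69%) lower at an adjusted p under 0.05 by the limma test paired by cell line, while of all genes 2339 (11.8%) were higher and 1390 (7.03%) lower. The autophagy genes were mostly well detected, with 36 of them over a signal of 50 on at least 7 arrays. Among the 9186 genes that bright, which were tested as a set of their own, 24.8% were higher and 17.5% lower, against 18 higher and 4 lower of the 36. The split of all genes depended on the scaling, with 62.7% of the calls higher as reported, 52.1% after quantile normalization and 43.7% after centring each array on its median, while the autophagy genes gave 16 higher and 3 lower, and 14 and 4, under these 2 scalings. With P12-ICHIKAWA and TALL-1 as 1 line, 17 autophagy genes were higher and 2 lower. As RNA came from whole cultures, less RNA per cell and fewer cells making it cannot be told apart.

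The changes were small. Of the 39 genes only ATG2A and NBR1 passed a fold change of 1.5, both higher, where 1.07% of all genes were higher and 0.506% lower past that fold. The median change of the 39 was 0.17 on the log2 scale, against 0.013 over all genes. Among the brighter genes alone these medians were 0.16 and 0.031. A mean change above 0 was seen for 30 of the 39, and for 10771 of all 19775 genes. In all 7 lines 15 of the 39 were higher and 3 lower, or 38.5% and 7.69%, against 10.0% and 6.11% of all genes. Most of the 39 were bright, and shares past 1.5-fold or in all 7 lines were not counted among the brighter genes alone. The 20 genes that did not pass the test had mean changes between -0.19 and 0.24. The levels of the AS605240 and vehicle arrays overlapped for every one of the 39 genes, and for 38 of them the range of vehicle levels between lines exceeded the size of the change. Neither count was made over all genes, so neither is read as a trait of the 39. Given the overlap, each change was read within a line. Its SE comes from the spread of the change between lines, array noise included, drawn by limma toward the spread of all genes. It can thus differ from a gene's own spread. The SDs of the changes of ULK1 and PIK3C3 were 0.070 and 0.33, and their SEs 0.054 and 0.097. Levels here are log2 of the signal plus 16, a scale that understates the change of dim genes, and they are compared within a gene only.

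**Figure D1:**
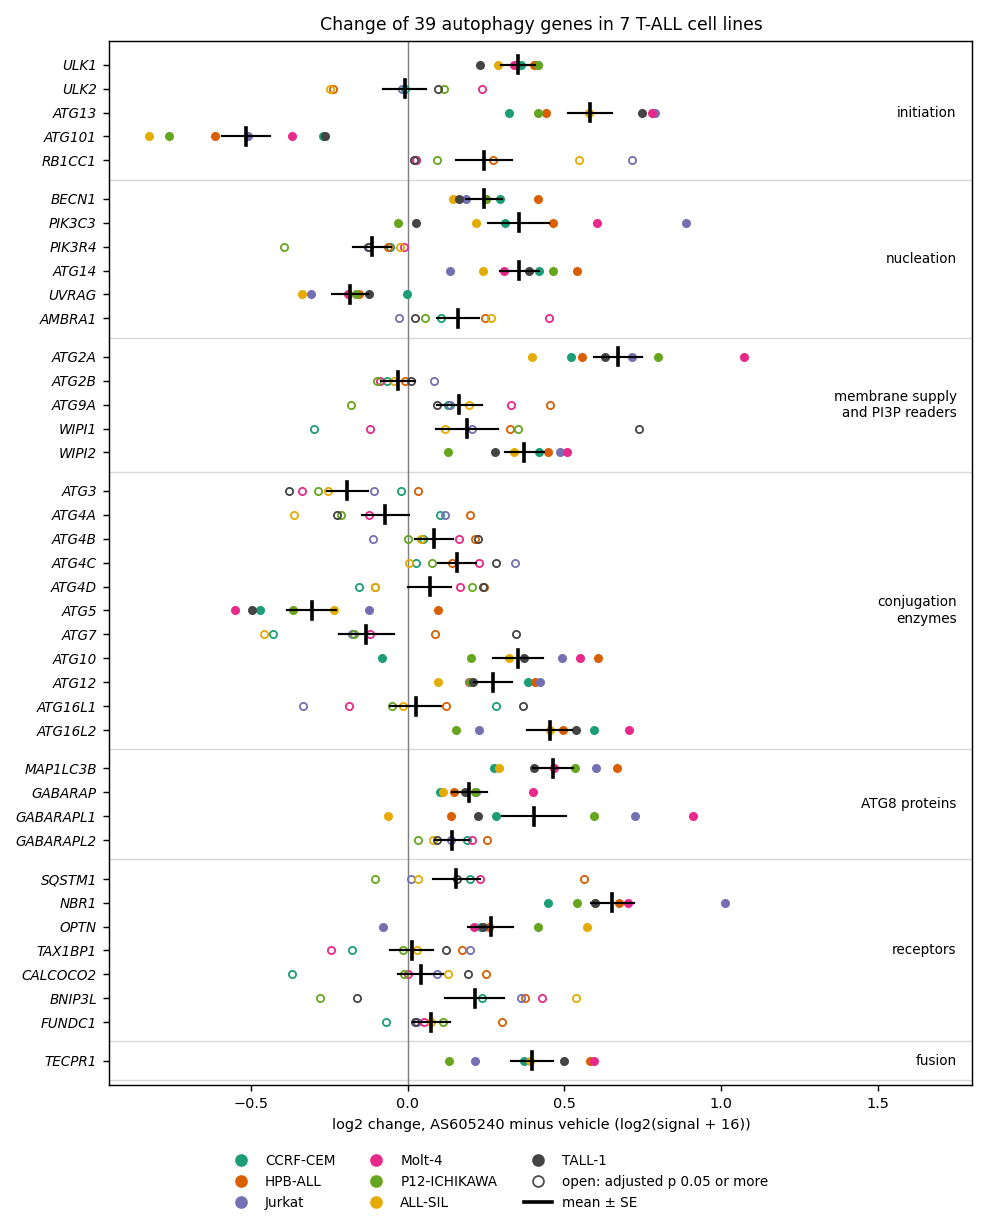
Change of each of the 39 autophagy genes (AS605240 minus vehicle, log2 of signal plus 16) in each of 7 T-ALL cell lines, grouped by step. Points are lines, filled where the adjusted p was under 0.05 and open where it was not, and the black marks are the mean ± SE of the limma fit. ATG2A and NBR1 lie farthest to the right, with means of 0.67 and 0.65, and ATG101 farthest to the left, with a mean of -0.52.

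**Figure D2:**
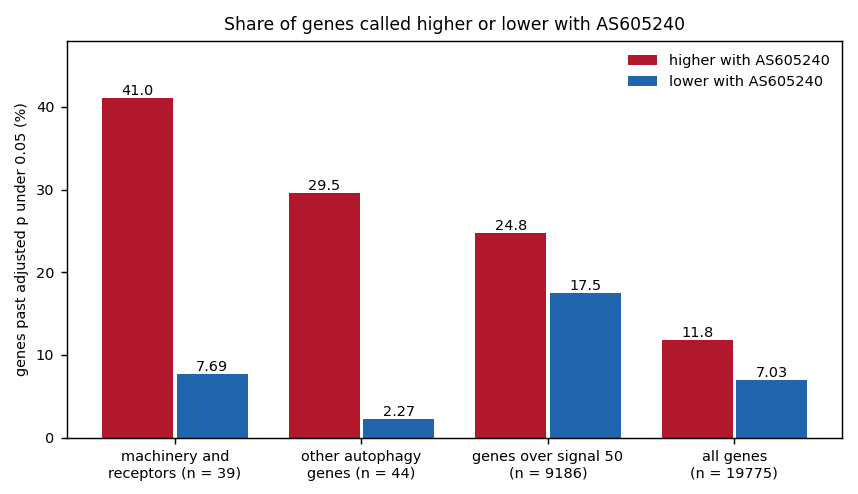
Percent of genes that passed an adjusted p of 0.05 in each direction (AS605240 minus vehicle), for the 39 autophagy genes, 44 other autophagy genes, 9186 genes over a signal of 50 on at least 7 arrays (tested as a set of their own) and all 19775 genes. The bars of the 39 genes stand at 41.0% higher and 7.69% lower, and those of all genes at 11.8% and 7.03%.

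The promoters of the genes with the 2 largest rises and of the gene with the largest fall are shown so that they can be set beside the changes, followed by the 2 in which an E-box was found. Each runs 5′ to 3′ on the strand of the gene from 250 bases before to 50 bases after its start in RefSeq (GRCh38.p14), and capitals mark CACGTG, the E-box that TFEB and its relatives bind. Binding was not measured, and the motif alone does not say which factor binds it. The windows are chr11:64917160-64917459 on the minus strand for ATG2A, chr17:43170159-43170458 on the plus strand for NBR1 (1 of its 2 windows), chr12:52069728-52070027 on the plus strand for ATG101, chr14:55411781-55412080 on the minus strand for ATG14 and chr3:112561913-112562212 on the minus strand for ATG3.
ATG2A: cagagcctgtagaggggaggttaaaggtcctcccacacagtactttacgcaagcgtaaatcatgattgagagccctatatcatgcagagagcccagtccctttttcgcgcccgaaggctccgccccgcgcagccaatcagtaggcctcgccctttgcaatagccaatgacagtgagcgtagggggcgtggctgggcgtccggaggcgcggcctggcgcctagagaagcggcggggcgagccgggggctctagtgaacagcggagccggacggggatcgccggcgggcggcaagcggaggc
NBR1: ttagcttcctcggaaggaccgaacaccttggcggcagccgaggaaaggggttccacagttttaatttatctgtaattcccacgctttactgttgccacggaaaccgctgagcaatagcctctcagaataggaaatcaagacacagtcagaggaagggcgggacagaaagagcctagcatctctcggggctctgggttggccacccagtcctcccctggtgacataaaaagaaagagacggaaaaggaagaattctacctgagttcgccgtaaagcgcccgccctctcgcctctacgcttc
ATG101: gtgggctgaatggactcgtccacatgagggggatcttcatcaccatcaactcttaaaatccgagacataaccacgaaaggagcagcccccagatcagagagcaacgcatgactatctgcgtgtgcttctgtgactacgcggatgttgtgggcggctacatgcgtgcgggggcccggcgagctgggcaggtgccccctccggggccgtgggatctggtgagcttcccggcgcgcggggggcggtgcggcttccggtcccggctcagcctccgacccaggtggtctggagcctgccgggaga
ATG14: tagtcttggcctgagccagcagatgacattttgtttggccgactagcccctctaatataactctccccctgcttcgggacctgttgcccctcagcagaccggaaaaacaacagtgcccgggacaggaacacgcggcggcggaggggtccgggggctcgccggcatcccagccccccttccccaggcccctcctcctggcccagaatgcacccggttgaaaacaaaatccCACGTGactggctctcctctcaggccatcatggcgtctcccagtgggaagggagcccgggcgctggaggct
ATG3: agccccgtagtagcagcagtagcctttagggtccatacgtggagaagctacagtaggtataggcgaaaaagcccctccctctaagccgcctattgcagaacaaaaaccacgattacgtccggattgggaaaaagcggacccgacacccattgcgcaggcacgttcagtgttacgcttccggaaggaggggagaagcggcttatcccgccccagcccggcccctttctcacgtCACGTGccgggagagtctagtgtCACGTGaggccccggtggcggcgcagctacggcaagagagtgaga
Of the 39 genes 35 had a window, and RB1CC1, UVRAG, ATG4D and BNIP3L were not matched. The E-box, which reads the same on both strands, was in 2 of these 35 genes and in 7.26% of all 35116 windows. It lay 21 bases before the start of ATG14, whose RNA rose, and ATG3, whose change of -0.19 did not pass the test (adjusted p = 0.0555), had 2 copies. The forkhead site GTAAACA, searched on both strands, was in the window of CALCOCO2 alone and in 3.42% of all windows, and CALCOCO2 had a change of 0.04 (adjusted p = 0.778).

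In the initiation complex, 2 genes rose and 1 fell, and the 2 subunits with the largest changes moved in opposite directions. ATG13, the subunit through which ULK1 is held in the complex, had levels of 7.73 to 8.72 with AS605240 (median 8.14), against 7.15 to 7.93 with vehicle (median 7.54). It was higher in each line, Jurkat was highest and ALL-SIL lowest on either treatment, and 5 of 7 AS605240 arrays lay above every vehicle array. The change was 0.58 ± 0.071 (SE, n = 7 lines), with an adjusted p of 1.02e-04. ATG101, the partner that stabilizes ATG13, went the other way, with levels of 6.99 to 8.74 with AS605240 (median 7.46), against 7.51 to 9.11 with vehicle (median 8.21). Molt-4 was highest on either treatment, the groups overlapped, and each line was lower, least in TALL-1 and CCRF-CEM (-0.26 and -0.27) and most in ALL-SIL (-0.82). Its change was -0.52 ± 0.077 (adjusted p = 4.25e-04).

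ULK1, the kinase that starts autophagy, had levels of 6.15 to 7.14 with AS605240 (median 6.98), against 5.79 to 6.88 with vehicle (median 6.63). CCRF-CEM was lowest on either treatment, and the rise was even between lines, 0.23 in TALL-1 to 0.42 in Jurkat and P12-ICHIKAWA. The mean change was 0.35 ± 0.054 (adjusted p = 5.39e-04). Its relative ULK2 was under a signal of 50 on all 14 arrays, with a change of -0.01 (adjusted p = 0.954), so that little can be said of it. RB1CC1, the large scaffold known as FIP200, was above 0 in all 7 lines but unevenly, with 0.72 in Jurkat, 0.55 in ALL-SIL and 0.02 to 0.27 in the other 5, and its mean of 0.24 did not pass (adjusted p = 0.0713). Its other probe set, over a signal of 50 on all 14 arrays, did pass (0.29, adjusted p = 0.0077).

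**Figure D3:**
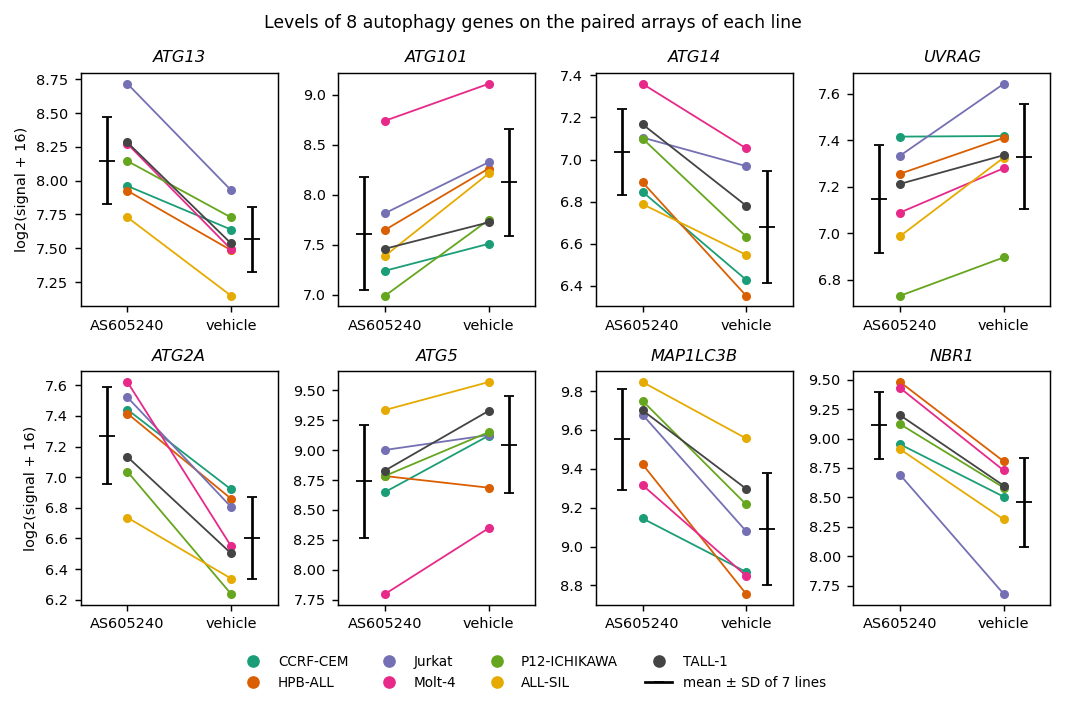
Levels (log2 of signal plus 16) of 8 autophagy genes with AS605240 (left of each panel) and vehicle (right), with a line joining the 2 arrays of each cell line and bars for the mean ± SD of 7 lines. The joined lines run one way in all 7 lines for ATG13, ATG101, ATG14, ATG2A, MAP1LC3B and NBR1, and for UVRAG CCRF-CEM is almost flat, while the ranges of the groups overlap in each panel. ATG5 has 1 line, HPB-ALL, against the others.

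In the PIK3C3 complexes, which make PI3P, BECN1, PIK3C3 and ATG14 rose and UVRAG fell. ATG14, which brings the complex to the site where autophagosomes form, had levels of 6.79 to 7.36 with AS605240 (median 7.10), against 6.35 to 7.05 with vehicle (median 6.63). Molt-4 was highest on either treatment, and each line was higher, from 0.14 in Jurkat to 0.54 in HPB-ALL. The change was 0.36 ± 0.062 (adjusted p = 0.00123). UVRAG takes the place of ATG14 in the form of the complex that acts on endosomes. Its levels were 6.73 to 7.42 with AS605240 (median 7.21), against 6.90 to 7.64 with vehicle (median 7.34), P12-ICHIKAWA being lowest on either treatment. No line was higher, CCRF-CEM was at 0 to the second decimal, and the change of -0.18 ± 0.059 was close to the threshold (adjusted p = 0.043). It was lost on leaving out any line but CCRF-CEM, with adjusted p-values of 0.0655 to 0.117 without TALL-1, HPB-ALL, Molt-4, ALL-SIL, Jurkat or P12-ICHIKAWA, and with P12-ICHIKAWA and TALL-1 as 1 line (0.0611).

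BECN1, the scaffold of both complexes, had levels of 8.36 to 9.37 with AS605240 (median 9.02), against 8.21 to 9.18 with vehicle (median 8.86). Jurkat was highest and ALL-SIL lowest on either treatment, and the rise of 0.24 ± 0.056 was seen in each line (0.14 to 0.42, adjusted p = 0.00771). PIK3C3, the lipid kinase itself, had levels of 7.68 to 8.79 with AS605240 (median 8.54), against 7.08 to 8.76 with vehicle (median 8.23). Its change was uneven between lines. Jurkat and Molt-4, which had the lowest vehicle levels (7.42 and 7.08), changed by 0.89 and 0.60, while P12-ICHIKAWA and TALL-1, which had the highest (8.68 and 8.76), changed by -0.03 and 0.03. The vehicle level is part of the change, so with 1 array each a link between them cannot be told apart from array noise. P12-ICHIKAWA and TALL-1 were also close to each other at baseline. The mean change of PIK3C3 was 0.35 ± 0.097 (adjusted p = 0.0195), and the call was lost without Jurkat (0.27, adjusted p = 0.0564) or without Molt-4 (0.31, adjusted p = 0.0621). With its probe sets averaged it passed (0.25, adjusted p = 0.00325). Its 6 other probe sets were dim, each over a signal of 50 on at most 6 arrays. Those at 0.51, 0.50 and 0.34 passed (adjusted p = 5.53e-05 to 0.00231), and the rest, at -0.09 to 0.13, did not. PIK3R4, the regulatory partner of PIK3C3, had changes of -0.39 to -0.01 with a mean of -0.11 (adjusted p = 0.238), and AMBRA1, a regulator of BECN1, had a mean of 0.16 (adjusted p = 0.119).

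Among the proteins that supply membrane and read PI3P, ATG2A and WIPI2 rose and none fell. ATG2A, which moves lipid from the endoplasmic reticulum into the growing membrane, had the largest change of the 39 genes. Its levels were 6.74 to 7.62 with AS605240 (median 7.42), against 6.24 to 6.92 with vehicle (median 6.55). In 6 of 7 lines the AS605240 array lay above every vehicle array, ALL-SIL being the exception. The change was 0.67 ± 0.076, or 1.59-fold (adjusted p = 6.42e-05), with 0.40 in ALL-SIL and 1.07 in Molt-4. ATG2B, which does the same work, had changes of -0.10 to 0.08 and a mean of -0.03 (adjusted p = 0.784).

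WIPI2, which binds PI3P and brings in the conjugation enzymes, had levels of 8.96 to 9.49 with AS605240 (median 9.21), against 8.62 to 9.04 with vehicle (median 8.83). HPB-ALL was highest and ALL-SIL lowest on either treatment, and 6 of 7 AS605240 arrays lay above every vehicle array. The change was 0.37 ± 0.061 (adjusted p = 8.5e-04), smallest in P12-ICHIKAWA (0.13). WIPI1, a relative of WIPI2, was over a signal of 50 only in ALL-SIL, and its changes of -0.30 to 0.74 had a mean of 0.19 (adjusted p = 0.231). ATG9A, the membrane protein that works with ATG2 proteins, had a mean of 0.17 (adjusted p = 0.137). It was below 0 in P12-ICHIKAWA alone (-0.18), and without that line its mean of 0.22 passed (adjusted p = 0.0409). Leaving out the only line below 0 raises the mean by itself, and ATG9A did not pass in the other 14 alternatives that kept the block.

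The conjugation enzymes gave the smallest median change of the steps, 0.071 over 11 genes, with 3 that rose, 1 that fell and 7 that did not pass. These shares, 27.3% higher and 9.09% lower, stand against 11.8% and 7.03% of all genes and 24.8% and 17.5% of the brighter genes. The share that rose was thus near that of the brighter genes. ATG5, which is joined to ATG12, was the gene that fell. Its levels were 7.80 to 9.33 with AS605240 (median 8.78), against 8.35 to 9.57 with vehicle (median 9.13). ALL-SIL was highest and Molt-4 lowest on either treatment, and 6 of 7 lines were lower, HPB-ALL being at 0.10 and Molt-4 at -0.55. The change was -0.31 ± 0.078 (adjusted p = 0.0136). ATG12 itself went up, with levels of 8.15 to 9.10 with AS605240 (median 8.63), against 7.95 to 8.69 with vehicle (median 8.51). HPB-ALL was highest and P12-ICHIKAWA lowest on either treatment, each line was higher, and the change was 0.27 ± 0.061 (adjusted p = 0.00593).

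ATG10, the enzyme that passes ATG12 to ATG5, had levels of 7.34 to 8.29 with AS605240 (median 7.73), against 7.07 to 7.74 with vehicle (median 7.43). It was higher in 6 of 7 lines, CCRF-CEM being at -0.08 and HPB-ALL at 0.61, with a mean of 0.35 ± 0.079 (adjusted p = 0.00622). ATG16L2, a relative of the ATG16L1 that joins the ATG12 and ATG5 conjugate, had levels of 6.38 to 7.11 with AS605240 (median 6.83), against 5.96 to 6.66 with vehicle (median 6.29). Each line was higher, ALL-SIL was highest on either treatment, and 5 of 7 AS605240 arrays lay above every vehicle array. The change was 0.45 ± 0.071 (adjusted p = 6.12e-04). ATG16L1 had changes of -0.33 in Jurkat to 0.37 in TALL-1 and a mean of 0.03 (adjusted p = 0.88).

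The other enzymes gave no call by their brightest probe sets. ATG3, which hands ATG8 proteins to the lipid, was below 0 in 6 of 7 lines with a mean of -0.19 ± 0.065 (adjusted p = 0.0555), and it passed without CCRF-CEM (adjusted p = 0.0471) or without HPB-ALL (adjusted p = 0.031). HPB-ALL (0.03) and CCRF-CEM (-0.02) had its highest changes, so leaving out either lowers the mean by itself. ATG7, which activates both ATG12 and the ATG8 proteins, had changes of -0.46 to 0.35 and a mean of -0.13 (adjusted p = 0.367). The 4 ATG4 proteases, which trim ATG8 proteins and later free them from the membrane, had mean changes of -0.07 for ATG4A, 0.08 for ATG4B, 0.16 for ATG4C and 0.07 for ATG4D, with adjusted p-values of 0.0911 to 0.601. ATG4C was above 0 in all 7 lines. A dimmer probe set of ATG4B, over a signal of 50 on 12 arrays, passed (0.31, adjusted p = 0.00772). Its remaining probe set did not (0.12, adjusted p = 0.292).

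Of the 4 ATG8 proteins 3 rose, and their median change was 0.30, against 0.24 for the initiation complex. That order turned with an offset of 64 (0.20 and 0.22), over the brighter genes (0.20 and 0.30), with probe sets averaged (0.24 and 0.27) and without Molt-4 (0.24 and 0.28). MAP1LC3B, the form of LC3 used most often as a marker of autophagosomes, had levels of 9.14 to 9.85 with AS605240 (median 9.68), against 8.76 to 9.56 with vehicle (median 9.08). Each line was higher, from 0.28 in CCRF-CEM to 0.67 in HPB-ALL, and ALL-SIL was highest on either treatment. The change was 0.46 ± 0.064, or 1.38-fold (adjusted p = 2.47e-04). GABARAP had levels of 9.32 to 10.57 with AS605240 (median 10.51), against 9.17 to 10.33 with vehicle (median 10.22), HPB-ALL being lowest on either treatment. It was 0.40 higher in Molt-4 and 0.10 to 0.22 higher in the other 6 lines, with a mean of 0.20 ± 0.057 (adjusted p = 0.0266). That call was lost without Jurkat (adjusted p = 0.0608), Molt-4 (0.0764), P12-ICHIKAWA (0.0573) or TALL-1 (0.0574), and under median centring (0.0963).

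GABARAPL1, which these lines expressed unevenly, had levels of 4.60 to 7.08 with AS605240 (median 5.30), against 4.02 to 6.36 with vehicle (median 5.12). Only Jurkat and Molt-4 reached a signal of 50, on 3 arrays in all. The mean change was 0.40 ± 0.102 (adjusted p = 0.0131), with 0.91 in Molt-4, 0.73 in Jurkat, 0.59 in P12-ICHIKAWA and -0.06 in ALL-SIL. With an offset of 64 in place of 16 it was 0.21 and did not pass (adjusted p = 0.0806). GABARAPL2 had levels of 9.72 to 10.51 with AS605240 (median 10.14), against 9.53 to 10.26 with vehicle (median 10.00). HPB-ALL was highest and CCRF-CEM lowest on either treatment, and each line was above 0 (0.03 to 0.25), but the mean of 0.14 ± 0.055 did not pass (adjusted p = 0.0926).

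Of the 7 receptors, which bind cargo and ATG8 proteins at once, NBR1 and OPTN rose, a share near that of the brighter genes. All 7 had a mean change above 0, as had 10771 of all 19775 genes. NBR1, a receptor for ubiquitin-tagged cargo, had levels of 8.69 to 9.48 with AS605240 (median 9.12), against 7.68 to 8.81 with vehicle (median 8.58). HPB-ALL was highest and Jurkat lowest on either treatment, and 6 of 7 AS605240 arrays lay above every vehicle array, Jurkat being the exception. The change was 0.65 ± 0.068, or 1.57-fold, with the smallest adjusted p of the 39 genes (4.09e-05), and it was 0.45 in CCRF-CEM and 1.01 in Jurkat. SQSTM1, the related receptor known as p62, had levels of 7.55 to 8.80 with AS605240 (median 8.29), against 7.55 to 8.34 with vehicle (median 8.24). Its mean of 0.16 did not pass (adjusted p = 0.183), with 0.56 in HPB-ALL and -0.10 to 0.23 in the other 6 lines.

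OPTN, a receptor for bacteria and damaged mitochondria, differed more between lines than between treatments. Its levels were 4.92 to 8.64 with AS605240 (median 7.32), against 5.00 to 8.38 with vehicle (median 7.08), HPB-ALL being highest and Jurkat lowest on either treatment. The change was 0.26 ± 0.072 (adjusted p = 0.0192), above 0 in every line but Jurkat (-0.08). It was lost without P12-ICHIKAWA (adjusted p = 0.0554), without ALL-SIL (0.0611), under quantile normalization (0.0773) and under median centring (0.0519). TAX1BP1 and CALCOCO2, which also bind ubiquitin, had means of 0.01 and 0.04 (adjusted p = 0.935 and 0.778). FUNDC1, a receptor on mitochondria, had a mean of 0.08 (adjusted p = 0.454).

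BNIP3L, the mitochondrial receptor also called NIX, is set out because its direction split by line, which was noticed after its values were seen. Its changes were 0.24 to 0.54 in CCRF-CEM, HPB-ALL, Jurkat, Molt-4 and ALL-SIL, and -0.28 in P12-ICHIKAWA and -0.16 in TALL-1. The levels of P12-ICHIKAWA and TALL-1 were 10.93 and 10.81 with AS605240, against 11.21 and 10.97 with vehicle, while the other 5 lines had 9.47 to 10.16 with AS605240, against 9.10 to 9.92 with vehicle. The mean of all 7 lines was 0.21 (adjusted p = 0.142). It passed without P12-ICHIKAWA (0.30, adjusted p = 0.0312) and with P12-ICHIKAWA and TALL-1 as 1 line (0.29, adjusted p = 0.0425). As only these lines were below 0, leaving out P12-ICHIKAWA or joining both raises the mean by itself. All these values are of the brightest probe set of BNIP3L. Its other probe set, over a signal of 50 on all 14 arrays, had a mean change of 0.012 (adjusted p = 0.961).

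TECPR1, which tethers the finished autophagosome to the lysosome, was the only gene of the fusion step among the 39. Its levels were 7.09 to 7.83 with AS605240 (median 7.55), against 6.95 to 7.33 with vehicle (median 7.09). Each line was higher, from 0.13 in P12-ICHIKAWA to 0.59 in Molt-4, and 5 of 7 AS605240 arrays lay above every vehicle array. The change was 0.40 ± 0.068 (adjusted p = 0.00108).

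Genes with related roles were set against each other within each line. The 6 pairs were chosen after the values were seen, so the differences are given as a description with no test. The change of ATG13 exceeded that of ATG101 by 1.10 ± 0.26 (SD, n = 7 lines), and that of ATG14 exceeded that of UVRAG by 0.54 ± 0.099. Both differences were above 0 in each line. Between paralogs, ATG2A exceeded ATG2B by 0.70 ± 0.24, ATG16L2 exceeded ATG16L1 by 0.43 ± 0.25 and ULK1 exceeded ULK2 by 0.36 ± 0.20, again above 0 in each line, though ULK2 was too dim to show a change of its own. WIPI2 and WIPI1 differed by 0.18 ± 0.42, with 5 of 7 lines above 0.

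**Figure D4:**
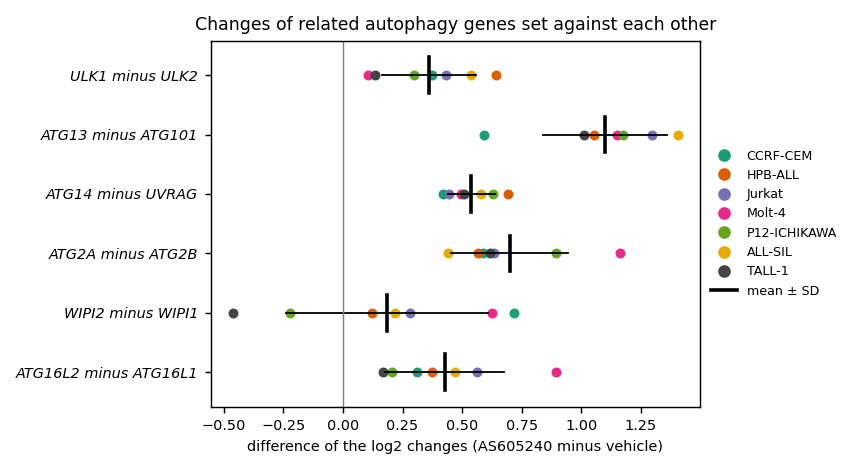
Difference of the log2 changes (AS605240 minus vehicle) of 6 pairs of related autophagy genes in each of 7 T-ALL cell lines, with the mean ± SD in black. All points of 5 pairs lie right of 0, ATG13 minus ATG101 farthest with a mean of 1.10, and those of WIPI2 minus WIPI1 lie on both sides.

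The lines differed in the level of some autophagy genes far more than AS605240 moved them. The range of vehicle levels between lines was 0.22 to 3.38, with a median of 0.78 over the 39 genes. It was widest for OPTN (3.38), WIPI1 (3.14) and GABARAPL1 (2.33). WIPI1 was 7.84 with AS605240 and 7.72 with vehicle in ALL-SIL, against 4.69 to 5.53 and 4.58 to 5.23 in the other 6 lines. Vehicle levels of GABARAPL1 were highest in Jurkat (6.36) and Molt-4 (5.90) and lowest in P12-ICHIKAWA (4.02).

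**Figure D5:**
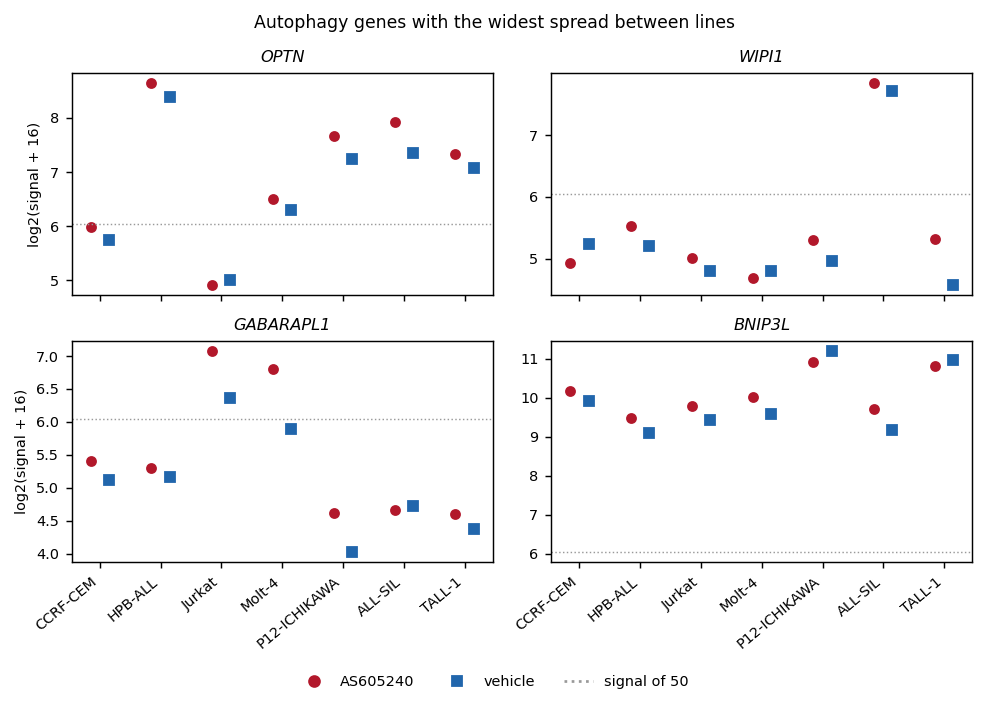
Levels (log2 of signal plus 16) of OPTN, WIPI1, GABARAPL1 and BNIP3L in each of 7 T-ALL cell lines with AS605240 (red circles) and vehicle (blue squares), with a dotted line at a signal of 50. WIPI1 stands above that line only in ALL-SIL (7.84 and 7.72), and BNIP3L is highest in P12-ICHIKAWA and TALL-1, where the vehicle array lies above the AS605240 array.

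By cell line, the median change of the 39 genes was above 0 in each, with a mean over lines of 0.16 ± 0.065 (SD, n = 7). HPB-ALL had the highest median (0.26), with 34 of 39 genes above 0, and P12-ICHIKAWA the lowest (0.094), with 24 above 0. The other lines had 25 (CCRF-CEM), 27 (Jurkat), 28 (Molt-4), 27 (ALL-SIL) and 32 (TALL-1) above 0. Of all genes, 50.3% to 57.1% were above 0 in a line. Of the 16 genes that rose, 12 were above 0 in all 7 lines, which the paired test that chose them favours. The changes of P12-ICHIKAWA and TALL-1 had a median difference of 0.14 over the 39 genes, against 0.11 to 0.24 in the other pairs, of which 2 were closer and 18 less close.

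Probe sets of 1 gene did not always share a direction. Of the 39 genes 12 had a single probe set and 27 several, and 15 of these 27 held changes of both signs when dim probe sets were included. Over a signal of 50 on at least 7 arrays, 19 genes had several, and ATG2B, ATG3, ATG5, ATG12, TAX1BP1 and CALCOCO2 held both signs. For ATG3 the other probe set gave 0.13, against -0.19 for its brightest. Of the 19 genes whose change passed the test, 10 had 17 further probe sets that bright. Of these 17, 13 passed in the same direction and 2 had the opposite sign without passing. Those 2 were of ATG5 (0.14, against -0.31 for its brightest probe set) and of ATG12 (-0.08, against 0.27), while the remaining probe set of each passed with the sign of the brightest (-0.29 and 0.52). The changes of other probe sets were 0.36, 0.42 and 0.74 for WIPI2, 0.53 for OPTN and 0.47 for NBR1, all of which passed, and 0.19 for MAP1LC3B, which did not (adjusted p = 0.0506). When the probe sets of a gene were averaged, ATG5 (-0.15, adjusted p = 0.195) and GABARAPL1 (0.28, adjusted p = 0.0888) did not pass.

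A further 44 autophagy genes outside the 39 were likewise listed with earlier results of these data known. They gave 13 higher (29.5%) and 1 lower (2.27%), where 11.8% and 7.03% of all genes, and 24.8% and 17.5% of the brighter genes, did so. Of 14 genes that act in fusion with the lysosome 7 were higher, of 19 other receptors and adaptors 4 were higher and 1 lower, and of 11 other members of the core families 2 were higher. The 8 with the smallest p were all higher in each line. WDR45, a PI3P reader related to the WIPI proteins, had levels of 7.91 to 8.82 with AS605240 (median 8.21), against 6.94 to 7.94 with vehicle (median 7.34), and a change of 0.85 ± 0.072 (adjusted p = 1.19e-05). ZFYVE1, which marks PI3P-rich membrane of the endoplasmic reticulum, changed by 0.52 and TECPR2, a large protein linked to autophagy, by 0.47. VPS11 and VPS33A, subunits of the complex that tethers membranes to the lysosome, changed by 0.60 and 0.59, and PLEKHM1, an adaptor that binds this complex and ATG8 proteins, by 0.41, which did not pass when its probe sets were averaged (0.19, adjusted p = 0.116). CALCOCO1, a receptor for the endoplasmic reticulum, changed by 0.62 and PINK1, a kinase that tags damaged mitochondria, by 0.48. These 7 had adjusted p-values of 7.83e-05 to 0.00138. RETREG1, another receptor for the endoplasmic reticulum, was the gene that fell (-0.25, adjusted p = 0.0381), and this was lost without CCRF-CEM, HPB-ALL, Jurkat, Molt-4 or ALL-SIL (adjusted p = 0.0625 to 0.101). Some rises outside the 8 were lost as well. STX17 (0.19, adjusted p = 0.0412) did not pass without HPB-ALL, Jurkat, Molt-4 or P12-ICHIKAWA or under median centring (0.151). TP53INP1 (0.50, adjusted p = 0.0279) did not pass without CCRF-CEM, HPB-ALL, Jurkat, Molt-4 or ALL-SIL. With probe sets averaged, TP53INP1 (0.13, adjusted p = 0.359) and BCL2L13 (0.11, adjusted p = 0.0793) did not pass.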

How the data were processed

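The table that the authors deposited holds an unlogged intensity per probe set and array, and per the paper's methods the values were summarized with iterPLIER, given an offset of 16 and put on a log2 scale. The submitters' processing notes name PLIER and Affymetrix Expression Console 1.3.1.187. How the arrays were normalized before that step is not given in the sources. Here the offset of 16 and log2 were applied to the deposited intensities. Of 54675 probe sets, 62 were array controls, 41091 named 1 gene, 1801 named several and 11721 none. Symbols came from the platform annotation and were updated by gene ID to those of RefSeq for 41037 probe sets. Each gene was represented by its single-gene probe set with the highest mean level, with no filter on dim signals, which left 19775 genes. AS605240 was compared with vehicle with limma 3.58.1 in R 4.3.3 (lmFit and eBayes), the cell line being a block because the 2 arrays of a pair come from 1 line, as in the paired analysis of the study. Adjusted p-values are those of Benjamini and Hochberg over all genes tested, or over all 41091 probe sets where single probe sets are given. The fit was tested on simulated data. The number of arrays limits the precision. With 1 array per line and treatment the p-values rest on the spread between lines, drawn by eBayes toward that of all genes.

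The 39 genes, their steps, the 44 further autophagy genes and the marker lists were chosen with earlier results of these data known. The text gives values for every gene that passed an adjusted p of 0.05, the 3 with the widest range of vehicle levels, every ATG8 protein and the 8 further autophagy genes with the smallest p, and accounts for the other genes by their means and ranges. BNIP3L in detail, RETREG1, STX17, TP53INP1, BCL2L13 and the 6 pairs of genes were chosen after their values were seen. Alternatives were quantile normalization, median centring, an offset of 4 or of 64, a signal over 50 on at least 7 arrays, the mean of all probe sets of a gene, no block, P12-ICHIKAWA and TALL-1 as 1 line, each line left out in turn, and eBayes with a trend and robust.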

Additional observations from a re-analysis of the deposited data

Results flagged for a closer look

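In 8 of 117 groups of 7 values (the AS605240 levels, vehicle levels and changes of the 39 genes) 1 cell line lay far from the other 6, by the size of its gap over the range of the group. Chance flags about 1 in 20 groups. In ALL-SIL, WIPI1 stood at 7.84 with AS605240 and 7.72 with vehicle (other lines 4.69 to 5.53 and 4.58 to 5.23), and CALCOCO2 at 9.76 with AS605240 (other lines 8.90 to 9.23). In Molt-4, the level with AS605240 was 8.25 for RB1CC1 (other lines 9.09 to 9.68) and 9.20 for FUNDC1 (other lines 8.71 to 8.87), and the change of GABARAP was 0.40 (other lines 0.10 to 0.22). The change of PIK3R4 was -0.39 in P12-ICHIKAWA (other lines -0.13 to -0.01), and that of CALCOCO2 was -0.37 in CCRF-CEM (other lines -0.01 to 0.25).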

How the results depend on the processing

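The 2 arrays of a pair share a cell line, and the paired design carried the calls: with no replicate block, 0 autophagy genes were higher and 0 lower by limma (10 of the 39 at an unadjusted p under 0.05), 0 of the further 44 autophagy genes were higher and 0 lower, and 19 of all genes were higher and 6 lower. Among the 15 alternatives that kept the block, 13 of the 19 autophagy genes that passed did so in every one, and PIK3C3, UVRAG, ATG5, GABARAP, GABARAPL1 and OPTN did not. An offset of 4 left 1 autophagy gene lower, ATG101, since ATG5 (adjusted p = 0.0516) and UVRAG (0.0806) did not pass, and also lost PIK3C3 (0.069), GABARAP (0.0676) and OPTN (0.0633). Leaving out each line gave 14 to 16 autophagy genes higher and 2 to 4 lower. The genes past 1.5-fold numbered 4 with an offset of 4 and 1 with an offset of 64. Of the 20 that did not pass, ATG3 passed in 6 alternatives, GABARAPL2 in 4, RB1CC1 in 3, ATG4C and BNIP3L in 2 each and ATG9A and ATG4B in 1 each. Of the further autophagy genes 0 were lower with an offset of 4 or the mean of all probe sets, 2 after median centring, a signal over 50 on at least 7 arrays or eBayes with a trend and robust, and 0 to 1 on leaving out each line. After median centring 2146 of all genes were lower. The median change of all genes, 0.013, was -0.0049 after quantile normalization, -0.040 after median centring and 0.031 over the brighter genes, while that of the 39 lay between 0.11 and 0.19.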
